A study of Mus musculus with 31 samples.

Results

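The Wnt ligands, receptors and modulators examined here were 57 genes, taken by symbol from a fixed list and all found among the 47729 genes of the deposited count matrix. They comprised 18 Wnt ligands, 15 receptors and co-receptors (Frizzleds, Lrp5, Lrp6, Ror1, Ror2 and Ryk), 11 secreted inhibitors, 6 membrane or intracellular modulators, the transcription factors Lef1 and Tcf7, and the R-spondin axis (Rspo1 to Rspo4 and their receptor Lgr5). The 31 libraries were RNA-seq profiles of nerve pieces cut by laser microdissection from sections of mouse embryos that carry Sox10:Histone2BVenus, a transgene in which Sox10 regulatory sequence drives a nuclear fluorescent protein. No sample was treated, and all groups share this transgene. At E16.5 there were 4 libraries of olfactory nerve from the mucosa, 4 of the outer olfactory nerve layer (ONL), 4 of the inner ONL, which lies against the olfactory bulb, and 3 of the trigeminal nerve. Earlier groups were olfactory nerve at E11.5 (4 libraries) and at E13.5 (7 libraries), and the ONL at E13.5 (5 libraries). Each library pooled several sections of one embryo, so it holds every cell type in the cut piece and not sorted glia. Olfactory ensheathing cells (OECs) are the glia of the olfactory nerve and ONL, and Schwann cells those of the trigeminal nerve.

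The labels of 10 of the 31 libraries, all from E11.5 and E13.5, went against the group means that the study tabulated. When the 4 libraries labelled E11.5 nerve and 1 labelled E13.5 nerve were taken as E13.5 ONL, 1 labelled E13.5 ONL was added to E13.5 nerve, and 4 labelled E13.5 ONL were taken as E11.5 nerve, the group means matched within 1% for 1683 of 1683, 1725 of 1725 and 1625 of 1625 genes. Grouped by label, 33, 257 and 23 of those genes matched. Early groups below follow the tabulated means, with some of the values by label given beside them, and E16.5 libraries were grouped as labelled. The 4 E11.5 libraries came from 2 embryos, and the 12 E13.5 libraries from 4 embryos per region, so some share an embryo and early p-values are too small for a comparison of embryos. At E16.5 each region had 1 library per embryo. The study cut these regions from shared sections, so libraries of different regions share embryos, and no label tells which ones do.

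Wnt proteins are secreted, lipid-modified ligands that bind Frizzled receptors. With the co-receptors Lrp5 and Lrp6, this stabilizes beta-catenin, which acts on target genes through TCF/LEF transcription factors such as Lef1 and Tcf7. Other Wnts act through Ror1, Ror2 and Ryk without beta-catenin. The pathway is held back at several levels. Secreted Frizzled-related proteins (Sfrp1, Sfrp2, Sfrp4, Sfrp5 and Frzb) and Wif1 bind Wnts, while Dkk1, Dkk2 and Sostdc1 act on Lrp co-receptors. Axin2, Nkd1, Apcdd1, Znrf3, Lef1 and Tcf7 are targets of the pathway in many tissues, and most of them dampen it in turn.

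Total counts ranged from 13379107 to 16800784 in the E16.5 olfactory libraries, from 30221586 to 32508725 in trigeminal nerve, and from 3512627 to 36705535 in the early libraries. Levels below are CPM, counts relative to the library total after scaling between libraries by the trimmed mean of M-values. A gene counted as called when edgeR's quasi-likelihood test gave a Benjamini-Hochberg adjusted p under 0.05 over all genes tested. Of the 57 members, 51 passed the filter on low counts. Wnt1, Wnt3a, Wnt8b, Wnt9b, Wnt10b and Notum did not, and their highest level in any library was 1.39 CPM, for Wnt10b in trigeminal nerve. The library kit does not mark strand, and Wnt5a, Wnt7b, Wnt11, Fzd5, Fzd6, Sfrp2, Notum, Axin2, Lef1 and Rspo3 overlap an annotated antisense gene in an exon, so their counts may hold reads of that partner.

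Markers of cell types differed between the cut pieces and move with many of the results below. Sox10, the glial transcription factor that the reporter follows, was at 643 ± 65.3 CPM (SD, n = 4) in outer ONL, 551 ± 136 (n = 4) in inner ONL, 343 ± 37.5 (n = 3) in trigeminal nerve and 126 ± 37.0 (n = 4) in E16.5 olfactory nerve. Of 11 mesenchymal markers tested, 8 were lower in outer ONL than in nerve and none higher. Their summed level was 6974 to 12618 CPM in outer ONL, 1573 to 2934 in inner ONL, 11352 to 19036 in nerve and 28040 to 32778 in trigeminal nerve. All 7 mural markers and 11 of 12 epithelial markers were also lower in outer ONL than in nerve. Of 12 olfactory bulb markers, 10 were higher in inner ONL than in nerve, with summed levels of 248 to 441 CPM against 24.8 to 46.1. In these bulk pieces, fewer cells of a type and less RNA per cell cannot be told apart.

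**Figure D1:**
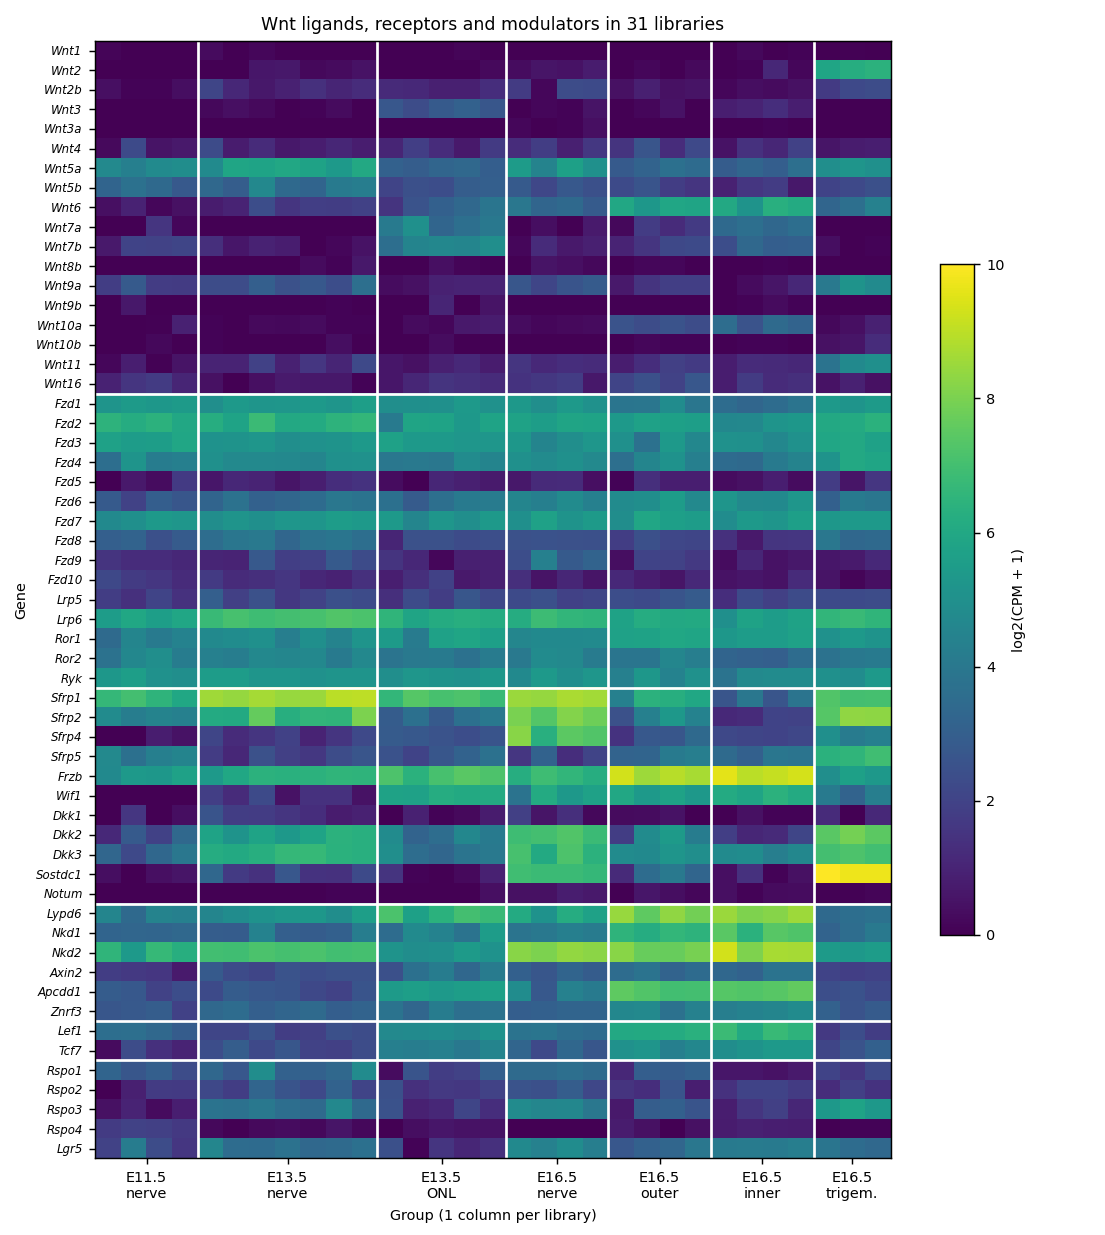
Level of each of the 57 members in each of the 31 libraries, as log2(CPM + 1), with 1 column per library and white lines between the 7 groups and between roles. Frzb, Lypd6 and Nkd2 are bright in both E16.5 ONL groups, the secreted inhibitors Sfrp1, Sfrp2, Sfrp4, Dkk2 and Sostdc1 in E16.5 olfactory nerve, and Sostdc1 is the brightest member in trigeminal nerve.

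Compared per length of exon, the inhibitor Frzb was the most abundant member in the ONL, at 192 CPM per kilobase in inner and 148 in outer ONL. Nkd2 (88.8) and Lypd6 (85.8) followed in inner ONL, and Lypd6 (73.2) and Nkd2 (49.5) in outer ONL. In E16.5 olfactory nerve the order was led by other secreted inhibitors, Sfrp2 (107), Sfrp1 (86.8) and Sostdc1 (62.5). In trigeminal nerve Sostdc1 stood at 546 CPM per kilobase and Sfrp2 at 125. The most abundant ligand per length was Wnt6 in the ONL (28.0 in inner, 24.9 in outer) and Wnt2 in trigeminal nerve (32). The map of all members by library shows this division between groups.

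The study made in situ hybridization probes for several members, and the primers of 5 of these probes are shown because they mark which part of each transcript was detected. Primers are given 5′ to 3′ in lower case, and coordinates are on GRCm38. The Nkd2 pair lies in coding sequence at chr13:73824303-73824322 and chr13:73821293-73821312 on the minus strand and frames 532 bases. The Sfrp5 pair is also coding, at chr19:42201920-42201938 and chr19:42198849-42198868 on the minus strand, and frames 708 bases. For Lypd6, Sostdc1 and Dkk2 the forward primer is coding and the reverse primer lies in the 3′ untranslated region, and the probes hold 398 of 514, 614 of 817 and 426 of 618 bases of coding sequence. The Sostdc1 primers are at chr12:36314298-36314317 and chr12:36317628-36317647, the Dkk2 primers at chr3:132173913-132173932 and chr3:132178290-132178309, and the reverse primer of Lypd6 at chr2:50190911-50190930, all on the plus strand. The Lypd6 forward primer spans an intron.
Lypd6 forward: caaccactccgtatcctggt
Lypd6 reverse: gggttgctgtgattgtgttg
Nkd2 forward: caagacccttcgagtgaagc
Nkd2 reverse: tggtgtcccaagaggttttc
Sfrp5 forward: gcggccaggagtacgacta
Sfrp5 reverse: tgcccgtcaggttgtctaac
Sostdc1 forward: ttcctcctgccattcatctc
Sostdc1 reverse: cctggctttcactgcaaact
Dkk2 forward: cctggtacccgctgcaataa
Dkk2 reverse: ggcacataacggaagcactg

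Outer ONL was compared with olfactory nerve at E16.5 to ask how pieces holding OECs of the bulb surface differ from pieces holding those of the mucosa. The beta-catenin effectors Lef1 and Tcf7 and the feedback genes Nkd1, Apcdd1 and Znrf3 were higher in outer ONL, as were Frzb, Lypd6, Wnt6 and Wnt10a. Sfrp1, Sfrp2, Sfrp4, Sostdc1, Dkk2, Dkk3 and Wnt5a were lower. In all, 13 members were higher and 13 lower, 26 of 51 tested, where 25.7% of all 17800 genes tested were called (10.3% higher, 15.4% lower). With the replicate number as a block, 28 were called, as Wnt9a (-1.59, adjusted p = 0.0222) and Rspo2 (-1.28, adjusted p = 0.0332) were added and none was lost. Values below are without the block. The median log2 difference of the members was -0.30, against -0.05 over all genes.

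Lef1, a DNA-binding partner of beta-catenin, was at 65.0, 65.6, 69.9 and 79.7 CPM in the outer ONL libraries and at 13.0, 13.6, 11.2 and 10.3 in the nerve libraries. Every ONL library was far above every nerve library, and the difference was 2.48 ± 0.20 on the log2 scale (SE; adjusted p = 1.89e-07). Tcf7, its relative, was at 32, 36.1, 18.9 and 23.4 CPM against 8.46, 3.58, 9.02 and 5.46 (log2 difference 2.0 ± 0.30, adjusted p = 8.9e-05). Both groups stood apart for Tcf7 too, although its levels in nerve spread more widely. RefSeq lists several promoter entries for Lef1, and for none did the bases after the start match the opening of an annotated Lef1 transcript. Of these entries, only 1, inside the gene, held the TCF/LEF core motif CTTTGA. It held the motif 2 times, written here on the other strand as TCAAAG. These are the 250 bases before the start of that entry, at chr3:131156044-131156293 on the plus strand of GRCm38, shown with the motif in capitals because Lef1 is both an effector and a target of the pathway:
Lef1 internal promoter: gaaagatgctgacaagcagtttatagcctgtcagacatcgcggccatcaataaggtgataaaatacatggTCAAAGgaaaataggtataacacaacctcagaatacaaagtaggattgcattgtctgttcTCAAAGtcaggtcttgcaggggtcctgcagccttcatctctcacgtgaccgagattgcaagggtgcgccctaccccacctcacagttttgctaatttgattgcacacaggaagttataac

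The core motif CTTTGA on either strand was found in promoter windows of 7 of the 38 members with an entry (Wnt5b, Wnt11, Fzd1, Ror1, Frzb, Dkk1 and Lef1), against 18.2% of 27025 genes. The longer form CTTTGAT was found for Wnt5b and Wnt11, against 4.29% of genes. A match is a description of letters and no site of binding, and Fzd1 and Lef1, both with a match, were called in opposite directions between outer ONL and nerve.

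Of 6 membrane or intracellular modulators, Lypd6, Nkd1, Apcdd1 and Znrf3 were higher, and Axin2 and Nkd2 were not called. Apcdd1, a membrane inhibitor of the Wnt-receptor complex, was at 184, 154, 125 and 127 CPM in outer ONL and at 28.3, 5.68, 20.1 and 15.9 in nerve (log2 difference 3.02 ± 0.31, adjusted p = 2.03e-06). Nkd1, a Dishevelled-binding antagonist, was at 89.1, 71.5, 97.7 and 88.0 CPM against 13.4, 15.1, 19.0 and 16.8 (2.37 ± 0.23, adjusted p = 8.96e-07). For both, the lowest ONL library lay several fold above the highest nerve library. Znrf3, a ubiquitin ligase that removes Frizzleds from the membrane, was at 23.5, 25.0, 12.3 and 20.2 CPM against 6.96, 7.35, 8.42 and 8.27 (1.32 ± 0.23, adjusted p = 0.000394). Axin2, a scaffold of the complex that destroys beta-catenin, was at 10.6, 13.1, 8.07 and 10.2 CPM against 7.34, 5.31, 8.35 and 6.56. The Axin2 ranges overlapped, and its difference of 0.55 ± 0.24 was not called (adjusted p = 0.101). Nkd2, the other Naked cuticle gene, was high in both, at 300.4, 205, 206 and 245 CPM in outer ONL and 298, 261, 336 and 304 in nerve (-0.39 ± 0.19, adjusted p = 0.154).

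**Figure D2:**
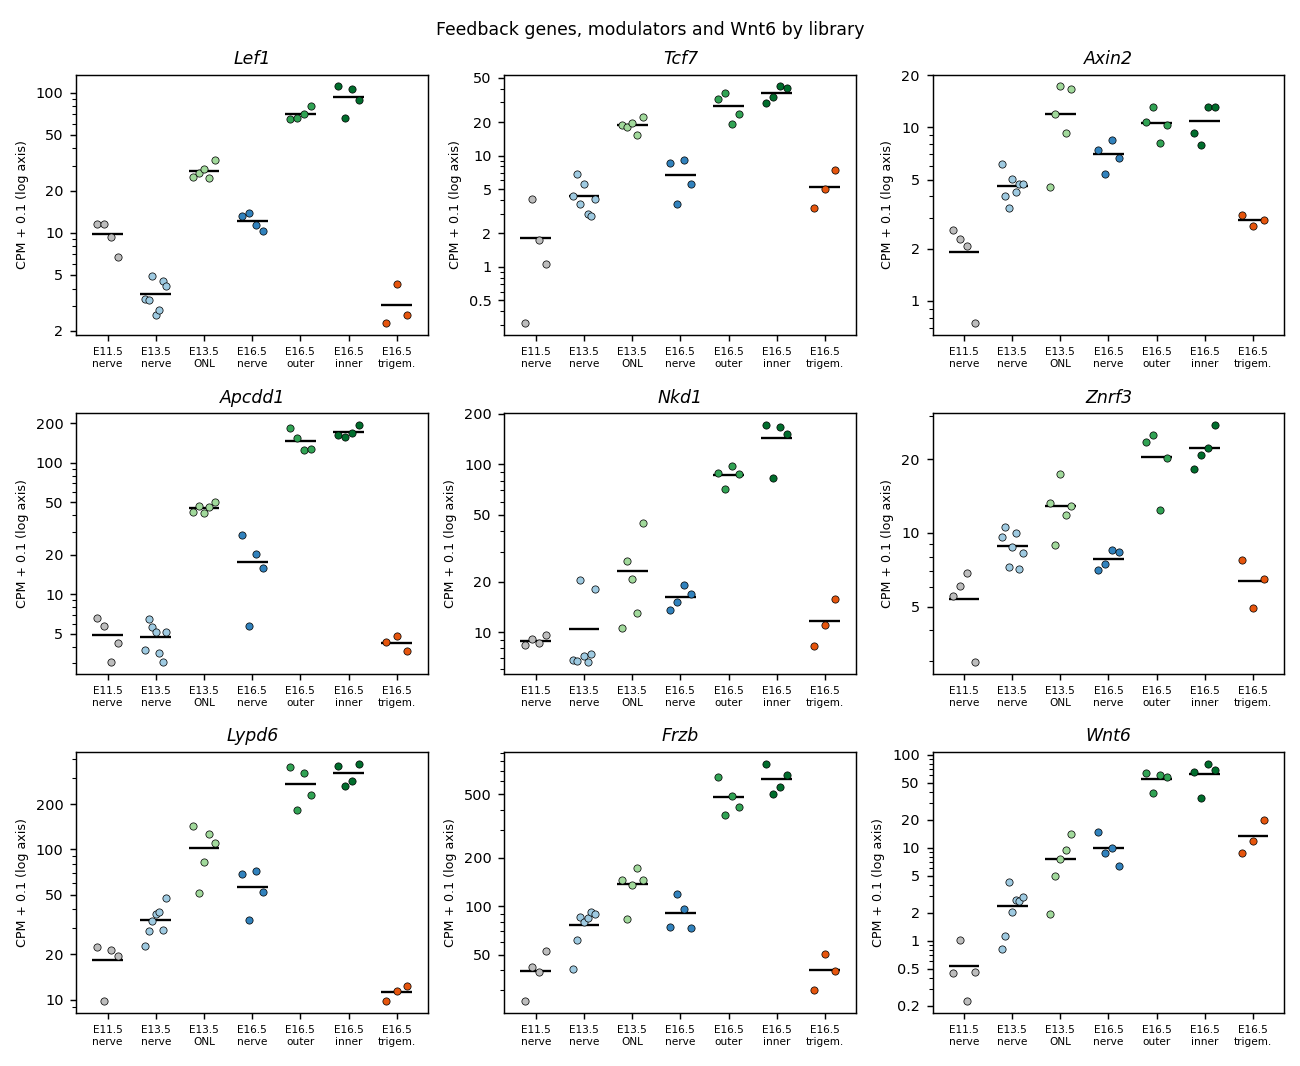
Levels of Lef1, Tcf7, Axin2, Apcdd1, Nkd1, Znrf3, Lypd6, Frzb and Wnt6 in every library, as CPM + 0.1 on a log axis, with 1 point per library and a bar at the mean of each of the 7 groups. For all but Axin2, the outer and inner ONL libraries at E16.5 lie above every E16.5 olfactory nerve and trigeminal nerve library.

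Frzb, which binds Wnts outside the cell, was at 644, 371, 484 and 415 CPM in outer ONL and at 74.7, 119, 95.9 and 73.4 in nerve, a difference of 2.33 ± 0.21 (adjusted p = 4.58e-07). Lypd6, a membrane-anchored protein that acts with Lrp6, was at 354.4, 183, 322 and 231 CPM against 68.3, 33.7, 71.6 and 52.1 (2.21 ± 0.23, adjusted p = 1.94e-06). Groups did not overlap for either gene. Sfrp5 was at 8.19, 8.41, 16.1 and 18.3 CPM in outer ONL and 2.01, 7.90, 1.46 and 3.14 in nerve (1.75 ± 0.42, adjusted p = 0.00471). The second nerve library came close to the lower pair of ONL libraries. By in situ hybridization the study found Sfrp5 in mucosal OECs and not in OECs of the ONL, opposite to this bulk difference. The cause of this conflict was not tested. Wif1, another Wnt-binding inhibitor, was at 63.0, 42.0, 53.1 and 39.6 CPM against 13.0, 68.4, 38.8 and 51.3. The ranges overlapped, and Wif1 was not called (0.13 ± 0.35, adjusted p = 0.84). In situ, the study saw Wif1 in OECs of the ONL and not in those of the mucosa. It proposes that Wif1 in mesenchyme near the olfactory epithelium accounts for the level in nerve.

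The secreted inhibitors that were lower in outer ONL were abundant in nerve. Sfrp1 was at 19.6, 84.7, 76.7 and 61.6 CPM in outer ONL and at 361, 343, 425 and 389 in nerve (-2.70 ± 0.38, adjusted p = 5.36e-05). Sfrp2 was at 4.63, 19.6, 39.0 and 20.5 CPM against 253, 160, 285 and 220 (-3.51 ± 0.45, adjusted p = 1.78e-05). Sfrp4 was at 1.74, 5.75, 5.40 and 9.81 CPM against 297, 78.4, 178 and 154 (-4.99 ± 0.45, adjusted p = 4.53e-07). In all 3 the first outer ONL library was the lowest and no library of one group reached the other. Sostdc1, which binds Lrp co-receptors and also BMPs, was at 1.29, 10.7, 15.6 and 8.47 CPM against 123, 112, 111 and 99.2 (-3.67 ± 0.48, adjusted p = 2.24e-05). Dkk2 was at 2.50, 27.6, 42.7 and 17.2 CPM against 118, 126, 153 and 111 (-2.55 ± 0.49, adjusted p = 0.000909). Dkk3, a relative of the Dkk inhibitors, was at 27.5, 25.9, 36.4 and 29.5 CPM against 135, 67.0, 148 and 83.9 (-1.92 ± 0.22, adjusted p = 6.25e-06). Of the 10 secreted inhibitors tested, 6 were thus lower and Frzb and Sfrp5 higher. Without the first outer ONL library, the lowest for Sfrp1, Sfrp2, Sfrp4, Sostdc1 and Dkk2, each of these 5 was still called. The study's in situ hybridization listed Sfrp2 among candidates found in neither OECs nor Schwann cells. The mesenchymal, mural and epithelial markers were lower in outer ONL as well. Their part in these differences was not tested.

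**Figure D3:**
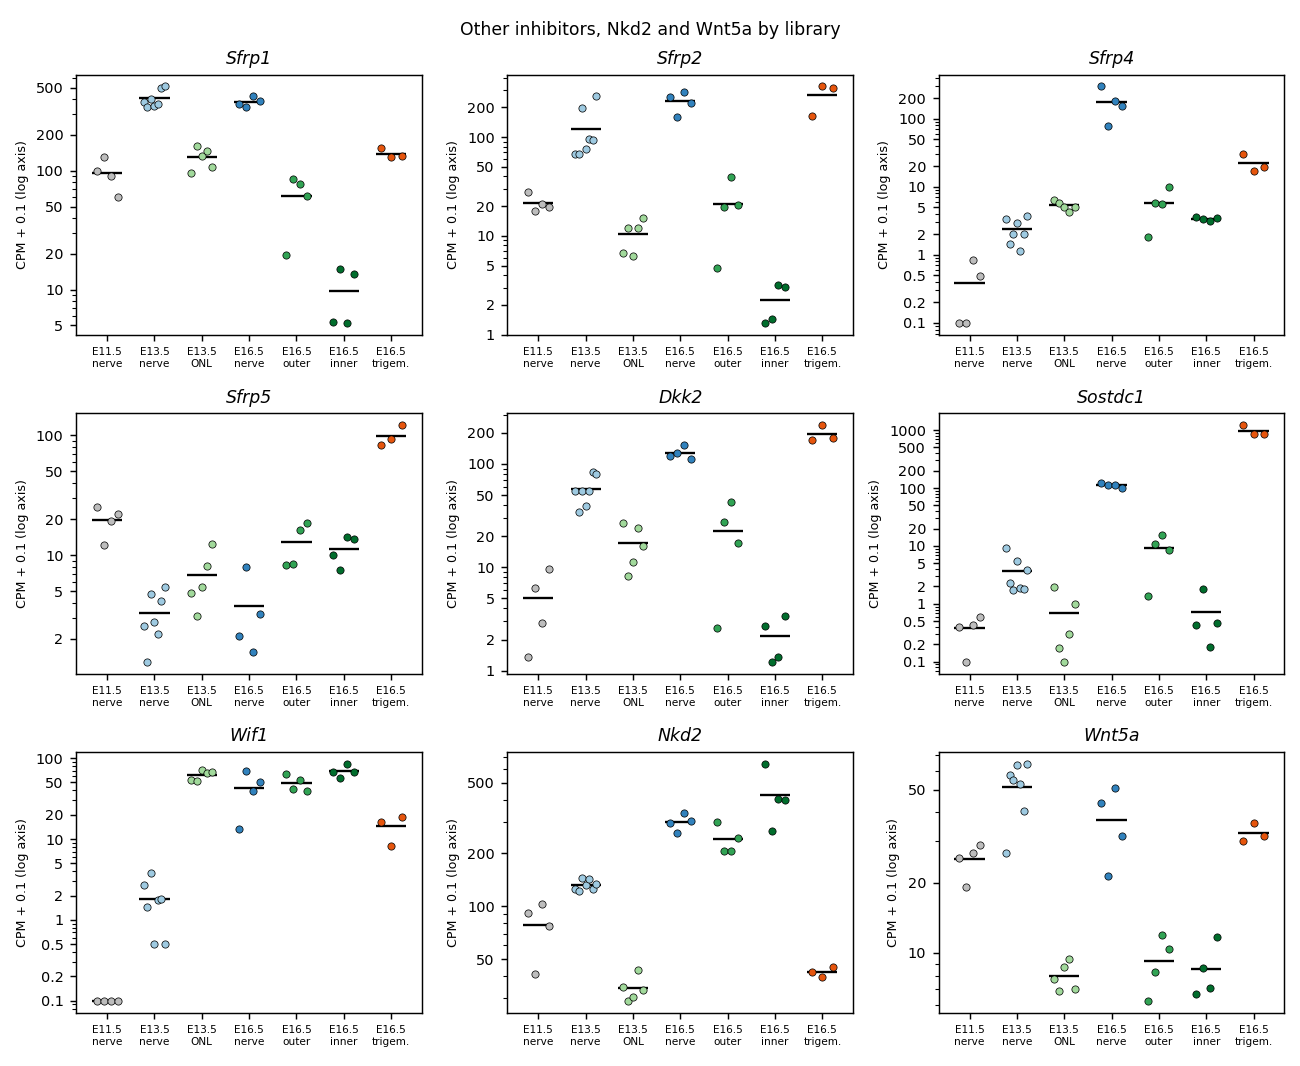
Levels of Sfrp1, Sfrp2, Sfrp4, Sfrp5, Dkk2, Sostdc1, Wif1, Nkd2 and Wnt5a in every library, as CPM + 0.1 on a log axis, with a bar at each group mean. Sfrp1, Sfrp2, Sfrp4, Dkk2 and Sostdc1 step down from E16.5 olfactory nerve to outer ONL and then to inner ONL by group mean, while Nkd2 stays between 205 and 639 CPM in these libraries and near 42.4 CPM in trigeminal nerve.

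Among ligands, Wnt6 was at 63.3, 38.2, 60.0 and 57.0 CPM in outer ONL and at 14.5, 8.64, 9.75 and 6.23 in nerve (2.42 ± 0.30, adjusted p = 1.38e-05). Wnt10a, which lies 6.19 kilobases downstream of it on the same chromosome, was at 4.86, 3.98, 4.84 and 4.02 CPM against 0.251, 0.123, 0.199 and 0.220 (4.36 ± 0.49, adjusted p = 4.81e-06). Neither ligand overlapped between groups. Wnt5a, the ligand best known for acting through Ror receptors, went the other way, at 6.15, 8.16, 11.8 and 10.3 CPM against 43.9, 21.2, 50.7 and 31.5 (-2.07 ± 0.28, adjusted p = 2.76e-05). Wnt2b was also lower (-2.40 ± 0.67, adjusted p = 0.0125), at no more than 4.04 CPM in these libraries. Wnt7a was called as higher (adjusted p = 0.0329) at 0.152 to 2.40 CPM against 0 to 0.661, but lost the call under 7 of 13 alternatives, among them the removal of any 1 of 5 libraries, nerve replicates 1 to 3 and outer ONL replicates 2 and 4 (adjusted p up to 0.0819). Wnt7b, at 0.986 to 3.72 CPM against 0.125 to 1.36, was not called (1.72 ± 0.63, adjusted p = 0.0547).

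Of 15 receptors and co-receptors, 1 was higher in outer ONL and 3 lower. Ror1 was at 51.7, 53.6, 60.4 and 58.5 CPM in outer ONL and 22.8, 25.9, 25.8 and 26.5 in nerve, a difference of 1.09 ± 0.14 with little spread on either side (adjusted p = 2.01e-05). Fzd1 was lower (-1.09 ± 0.22, adjusted p = 0.00155), at 13.7, 14.1, 27.9 and 14.0 CPM against 38.8, 29.6, 41.6 and 32. Fzd9 was lower (-2.21 ± 0.59, adjusted p = 0.00973), at 0.303, 3.03, 2.88 and 2.19 CPM in outer ONL, and its call rested on the second nerve library, at 19.3 CPM beside 4.20 to 8.16 (adjusted p = 0.0521 without it). The co-receptor Lrp6 was slightly lower (-0.59 ± 0.19, adjusted p = 0.027), and lost its call when nerve replicate 2, 3 or 4 or outer ONL replicate 1 was left out (adjusted p from 0.0667 to 0.114). Its ranges of 52.6 to 72.3 CPM in outer ONL and 71.1 to 113 in nerve overlapped. The other 11 receptors were not called. On the R-spondin axis, which raises Wnt receptor levels by drawing off Znrf3, Rspo3 (-2.21 ± 0.47, adjusted p = 0.00199) and its receptor Lgr5 (-1.38 ± 0.26, adjusted p = 0.000683) were lower in outer ONL. Lgr5 was at 5.61, 7.52, 8.84 and 14.6 CPM in outer ONL against 25.9, 20.1, 28.1 and 18.4, without overlap, and lost its call when the early libraries were fitted too (adjusted p = 0.0708). Rspo3 was at 0.607, 6.70, 7.44 and 5.06 CPM against 27.3, 23.0, 24.0 and 14.7. Rspo4 was called as higher (adjusted p = 0.00797) near the limit of detection, at 0 to 0.683 CPM against 0 in all 4 nerve libraries, at least 1.94-fold higher against a floor of 3 counts per library.

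Inner ONL was set against olfactory nerve next. There 16 members were higher and 20 lower (40.3% of all genes were called, 19.1% higher and 21.2% lower). The feedback genes and effectors called for outer ONL were again higher. Among the members the median was -0.45, against -0.02 over all genes. Nkd1 was at 171, 83.1, 167 and 152 CPM in inner ONL (3.12 ± 0.23, adjusted p = 2.4e-08), Apcdd1 at 164, 156, 169 and 193 (3.26 ± 0.31, adjusted p = 3.48e-07) and Lef1 at 111, 65.9, 107 and 88.4 (2.91 ± 0.21, adjusted p = 1.51e-08). All lay well above the nerve libraries. Frzb was at 770.0, 503, 558 and 662 CPM (2.75 ± 0.21, adjusted p = 3.48e-08), Lypd6 at 359, 265, 286 and 369 (2.47 ± 0.23, adjusted p = 2.27e-07) and Wnt6 at 64.9, 34.0, 78.9 and 67.7 (2.62 ± 0.30, adjusted p = 2.66e-06). Tcf7 (2.42), Znrf3 (1.48), Sfrp5 (1.59), Ror1 (0.80) and Wnt10a (5.32) were also higher. Axin2 was called here (0.62 ± 0.24, adjusted p = 0.0465) but lost the call in 9 of 13 alternatives.

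Sostdc1, Sfrp2 and Dkk2 had the lowest levels in inner ONL relative to nerve. Sostdc1 was at 0.337, 1.71, 0.0791 and 0.364 CPM (-7.51 ± 0.63, adjusted p = 8.28e-08), Sfrp2 at 1.21, 1.34, 3.08 and 2.97 (-6.76 ± 0.55, adjusted p = 5.31e-08) and Dkk2 at 2.63, 1.12, 1.27 and 3.27 (-5.94 ± 0.60, adjusted p = 5.82e-07). In nerve no library of these 3 genes was below 99.2 CPM. Sfrp1 (-5.32), Sfrp4 (-5.78), Rspo1 (-4.28), Fzd9 (-4.04), Rspo3 (-3.81), Wnt9a (-3.41), Wnt2b (-3.29), Dkk1 (-3.22), Dkk3 (-2.18), Wnt5a (-2.15), Wnt5b (-1.78), Fzd1 (-1.74), Fzd8 (-1.61), Ror2 (-1.36), Lrp6 (-1.05), Fzd4 (-1.02) and Fzd2 (-0.81) were lower too. Dkk1, at no more than 2.70 CPM in these libraries, lost its call in 7 of 13 alternatives. Of 11 mesenchymal markers, 10 were lower in inner ONL than in nerve. Their part in these falls was not tested. Neither Nkd2 (0.48 ± 0.19, adjusted p = 0.0566) nor Wif1 (0.65 ± 0.35, adjusted p = 0.157) was called.

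Wnt7a, Wnt7b and Wnt3 were higher in inner ONL than in nerve. Wnt7a was at 9.58, 11.7, 9.02 and 11.1 CPM, against 0 to 0.661 in nerve (5.28 ± 0.83, adjusted p = 0.000104). Wnt7b was at 4.11, 9.39, 6.96 and 7.40 CPM (3.21 ± 0.64, adjusted p = 0.00063). Wnt3 was at only 0.788 to 1.5 CPM (adjusted p = 0.0399) and lost the call under 10 of 13 alternatives. Bulb markers moved with these ligands. Tbr1, a transcription factor of bulb projection neurons, averaged 25.8 CPM in inner ONL, 3.13 in outer ONL and 0.460 in nerve, and the part of bulb tissue in the ligands' levels was not tested here. The study's in situ hybridization listed Wnt7a and Wnt7b among candidates found in neither OECs nor Schwann cells. Rspo4 was at 0.674 to 0.895 CPM, at least 4.19-fold above nerve, where it was 0 (adjusted p = 0.000802).

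The inner and outer ONL pieces differed in 14 members, 4 higher and 10 lower in inner than in outer ONL. This compares with 17.7% of all genes (10.1% higher, 7.54% lower), and the median was -0.27 against -0.02. Per the study, these pieces were cut by position and did not separate the inner and outer OEC populations seen by in situ hybridization. It also reported olfactory bulb tissue in the inner pieces. Nkd2 (0.87 ± 0.19, adjusted p = 0.00422), Nkd1 (0.76 ± 0.21, adjusted p = 0.0197), Lgr5 (0.89 ± 0.26, adjusted p = 0.0221) and Wnt7a (2.75 ± 0.70, adjusted p = 0.0119) were higher in inner ONL. Nkd2 was at 639, 268, 407 and 401 CPM there, and the second inner library lay within the outer range of 205 to 300.4. Lgr5 was at 16.2, 16.8, 15.7 and 18.2 CPM against 5.61, 7.52, 8.84 and 14.6. Lower were Sostdc1 (-3.84 ± 0.63), Dkk2 (-3.39 ± 0.56), Rspo1 (-3.33 ± 0.48), Sfrp2 (-3.25 ± 0.50), Sfrp1 (-2.63 ± 0.40), Wnt9a (-1.99 ± 0.62), Rspo3 (-1.60 ± 0.51), Fzd8 (-1.11 ± 0.33), Ror2 (-1.01 ± 0.23) and Fzd2 (-0.60 ± 0.17). The count fell to 9 without the second outer ONL library, where Wnt9a, Fzd2, Fzd8, Nkd1, Rspo3 and Lgr5 lost their calls. Fzd2 and Fzd8 also lost them without inner replicate 2 (adjusted p up to 0.0695 and 0.0801 over both libraries), Nkd1 without inner replicate 1 or 3 (up to 0.0752), and Wnt9a, Rspo3 and Lgr5 without any of several libraries (up to 0.103, 0.109 and 0.0616). When the early libraries were fitted too, Wnt7a (adjusted p = 0.0646), Nkd1 (0.211) and Lgr5 (0.345), 3 of the 4 higher members, lost their calls, and so did Fzd2 (0.0757). All 11 mesenchymal markers tested were lower in inner ONL too. Of 12 bulb markers, 11 were higher in inner than in outer ONL and none lower. The part of these cell types was not tested. Lypd6 (0.26 ± 0.22, adjusted p = 0.495), Frzb (0.41 ± 0.20, adjusted p = 0.184), Wif1 (0.52 ± 0.35, adjusted p = 0.382), Sfrp5 (-0.16 ± 0.40, adjusted p = 0.858) and Wnt7b (1.49 ± 0.59, adjusted p = 0.0941) were not called.

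Comparison with trigeminal nerve addressed how OEC-bearing and Schwann cell-bearing nerves differ. For outer ONL, 18 members were higher and 19 lower, against 31.3% of all genes (15.1% higher, 16.2% lower). For inner ONL, 19 were higher and 22 lower, against 43.9% (22.1% and 21.7%). The members' median was 0.26 for outer and -0.37 for inner ONL, against -0.004 and 0.02 over all genes. All 6 membrane or intracellular modulators and both transcription factors were higher in both ONL groups. Apcdd1 was at 4.27, 4.71 and 3.62 CPM in trigeminal nerve, so that outer ONL was higher by 5.15 ± 0.39 and inner ONL by 5.39 ± 0.40 (adjusted p = 3.49e-08 and 1.1e-08). Lypd6 was at 9.75, 11.3 and 12.3 CPM (4.63 ± 0.29 and 4.90 ± 0.29, adjusted p = 4.75e-09 and 1.18e-09). Lef1 was at 2.17, 4.19 and 2.49 CPM (4.59 ± 0.26 and 5.03 ± 0.26, adjusted p = 1.63e-09 and 3.16e-10). No ONL library came near these values. Frzb was at 30.1, 50.5 and 39.5 CPM (3.60 and 4.01), Nkd2 at 42.4, 39.5 and 45.2 (2.52 and 3.39), and Axin2 at 3.02, 2.59 and 2.82 (1.92 and 1.99), all called in both comparisons.

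**Figure D4:**
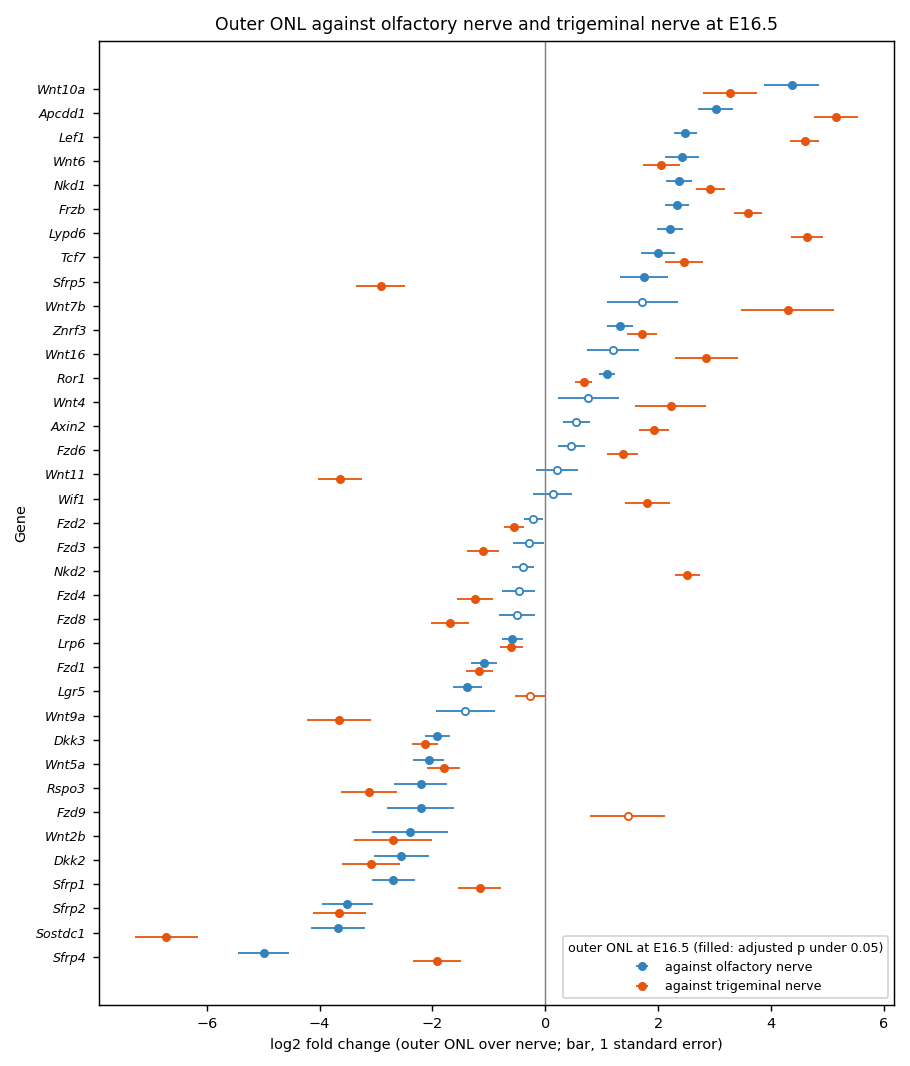
Log2 difference of outer ONL over olfactory nerve (blue) and over trigeminal nerve (orange) at E16.5 for members called in either comparison, with bars of 1 SE and filled points for adjusted p under 0.05. Members with all libraries of a group at 3 counts or fewer are left out. Both comparisons share the outer ONL libraries. Sfrp5 lies to the right against olfactory nerve (1.75) and to the left against trigeminal nerve (-2.92), and Nkd2 is near 0 against olfactory nerve (-0.39) and at 2.52 against trigeminal nerve.

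Nkd1 (2.93 for outer and 3.68 for inner ONL), Tcf7 (2.45 and 2.87), Znrf3 (1.71 and 1.87), Wif1 (1.81 and 2.32), Fzd6 (1.37 and 1.38) and Ror1 (0.68 and 0.39) were also higher in both ONL groups than in trigeminal nerve, together with Wnt6 (2.06 and 2.25). Wif1 was at 16.2, 8.19 and 18.6 CPM in trigeminal nerve, below every ONL library. The scarcer ligands Wnt7b (4.30 and 5.79), Wnt10a (3.27 and 4.23) and Wnt16 (2.85 and 1.47) were also higher in both, Wnt4 in outer ONL (2.22), and Rspo4 and Wnt3 in inner ONL. Wnt3 and Wnt7a were not detected in any trigeminal library, which put Wnt3 at least 9.12-fold higher in inner ONL, and Wnt7a at least 92.8-fold higher in inner and 13.8-fold higher in outer ONL. Rspo4 in trigeminal nerve did not exceed 0.0753 CPM.

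Among members lower in the ONL than in trigeminal nerve, Sostdc1 was at 1211, 853 and 853 CPM in trigeminal nerve, and lower in outer ONL (-6.72 ± 0.56, adjusted p = 8.66e-08) and in inner ONL (-10.56 ± 0.69, adjusted p = 2.94e-09). Wnt2 was at 57.7, 73.5 and 85.5 CPM in trigeminal nerve and at most 1.19 CPM in any other library. Wnt11, known for signalling without beta-catenin, was at 12.8, 26.1 and 30.2 CPM there and at most 3.57 elsewhere (-3.63 and -4.29 for outer and inner ONL). Sfrp5 was at 82.4, 92.2 and 121 CPM (-2.92 and -3.08), Dkk2 at 172, 237 and 179 (-3.09 and -6.48), Sfrp2 at 164, 326 and 316 (-3.65 and -6.90) and Rspo3 at 39.3, 54.9 and 39.5 (-3.13 and -4.73). Each was above every ONL library. Dkk3 (-2.13 and -2.40), Wnt9a (-3.66 and -5.65), Wnt2b (-2.69 and -3.58), Wnt5a (-1.80 and -1.88), Sfrp4 (-1.92 and -2.71), Sfrp1 (-1.17 and -3.79), Fzd8 (-1.69 and -2.80), Fzd4 (-1.25 and -1.80), Fzd1 (-1.17 and -1.82), Fzd3 (-1.10 and -0.93), Lrp6 (-0.60 and -1.06) and Fzd2 (-0.56 and -1.16) were lower in both ONL groups, and Rspo1 (-2.36), Wnt5b (-1.29) and Ror2 (-0.73) in inner ONL. Of 11 mesenchymal markers tested, 7 were lower and 1 higher in outer ONL than in trigeminal nerve, and all 11 were lower in inner ONL. Mural markers were lower too, 6 of 7 in outer and 7 of 7 in inner ONL. Of 6 bone and cartilage markers, 3 were lower and 1 higher in outer ONL, and 5 lower and 1 higher in inner ONL. Bulb markers went the other way, with 9 of 12 higher in outer and 10 of 12 in inner ONL. The part of these cell types in the differences was not tested. Some smaller differences rested on single libraries. For outer ONL, Fzd2 lost its call without outer ONL replicate 1 or trigeminal replicate 3 (adjusted p up to 0.125), Lrp6 without outer ONL replicate 1 or any trigeminal library (0.102), and Sfrp1 without outer ONL replicate 4 or trigeminal replicate 1 or 3 (0.0896). For inner ONL, Wnt5b lost it without inner replicate 1 or 4 or trigeminal replicate 2 or 3 (0.0944), Wnt16 without inner replicate 2 or 4 or trigeminal replicate 1 or 3 (0.121), Ror1 without inner replicate 2, 3 or 4 or trigeminal replicate 1 or 3 (0.147), and Ror2 without inner replicate 2 or 3 or trigeminal replicate 3 (0.0732).

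Olfactory and trigeminal nerve themselves differed in 24 members, 17 higher in olfactory nerve and 7 lower (26.9% of all genes, 15.2% higher and 11.7% lower). Nkd2 (2.91 ± 0.23, adjusted p = 1.22e-07), Lypd6 (2.43 ± 0.26, adjusted p = 2.83e-06), Apcdd1 (2.14 ± 0.35, adjusted p = 0.000181) and Lef1 (2.11 ± 0.23, adjusted p = 3.89e-06) were higher in olfactory nerve. Mean Sox10 was lower there, and its part in these differences was not tested. The study's in situ hybridization found neither Nkd2 nor Lypd6 in mucosal OECs. Frzb (1.27), Axin2 (1.37), Wif1 (1.68), Sfrp1 (1.53), Sfrp4 (3.07), Fzd9 (3.67), Rspo1 (1.92), Lgr5 (1.12), Fzd6 (0.91), Wnt16 (1.66) and Wnt7b (2.58) were higher as well. Wnt3 and Wnt7a were called as higher at 0 to 0.661 CPM against 0, and lost the call in 6 and 7 of 12 alternatives. Lower in olfactory nerve were Wnt2 (-7.15), Sfrp5 (-4.67), Wnt11 (-3.84), Sostdc1 (-3.04), Wnt9a (-2.24), Fzd8 (-1.19) and Fzd3 (-0.80). Dkk2 (-0.54 ± 0.49, adjusted p = 0.461) and Sfrp2 (-0.14 ± 0.43, adjusted p = 0.85) were not called. The call was lost for Wnt7b without nerve replicate 2 or 4 or trigeminal replicate 2 or 3 (adjusted p up to 0.0965), for Wnt16 without nerve replicate 2 or 3 or trigeminal replicate 1 or 3 (0.113), for Fzd3 without nerve replicate 2 or 3 or any trigeminal library (0.115), for Fzd6 without nerve replicate 3 or trigeminal replicate 1 (0.105) and for Fzd8 without trigeminal replicate 1 (0.0683). Lgr5 (adjusted p = 0.189), Fzd6 (0.0503) and Wnt7a (0.101) lost it when the early libraries were fitted too. Members had a median of 0.39, against 0.03 over all genes. Of 12 epithelial markers, 11 were higher in olfactory nerve and none lower, with summed levels of 402 to 799 CPM against 219 to 298. Of 12 bulb markers 6 were higher and 2 lower, and of 11 mesenchymal markers 2 were higher and 5 lower. Their part was not tested.

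Because Sox10 itself was higher in the ONL, levels were also expressed as a percentage of the Sox10 level of the same library, a scale added after the data had been seen. On this scale Frzb was at 72.5% ± 4.89 (SD, n = 4) in olfactory nerve, 75.8% ± 23.6 (n = 4) in outer ONL, 117% ± 25.1 (n = 4) in inner ONL and 11.9% ± 4.11 (n = 3) in trigeminal nerve. Lypd6 was at 49.0% ± 21.5, 43.5% ± 16.1, 60.2% ± 13.3 and 3.26% ± 0.443 in the same order, Nkd1 at 13.4% ± 3.47, 13.7% ± 2.91, 25.8% ± 2.47 and 3.36% ± 0.883, and Lef1 at 9.93% ± 2.38, 10.9% ± 1.15, 17% ± 1.66 and 0.887% ± 0.422. For these 4 genes outer ONL and olfactory nerve overlapped, and trigeminal nerve lay below both. Wnt10a was at 0.174% ± 0.0799 in olfactory nerve, 0.699% ± 0.145 in outer ONL, 1.52% ± 0.210 in inner ONL and 0.130% ± 0.0992 in trigeminal nerve. Nkd2 was at 253% ± 72.7 in olfactory nerve, above 37.4% ± 7.94 and 78.0% ± 20.4 in outer and inner ONL. The study's in situ hybridization found Nkd2 in mesenchyme near the olfactory epithelium and not in mucosal OECs. It found Lypd6 in OECs of the ONL and not in those of the mucosa. Frzb was found in OECs of the ONL and in only a few of the mucosa. In these bulk pieces the percentage is therefore no level per glial cell.

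**Figure D5:**
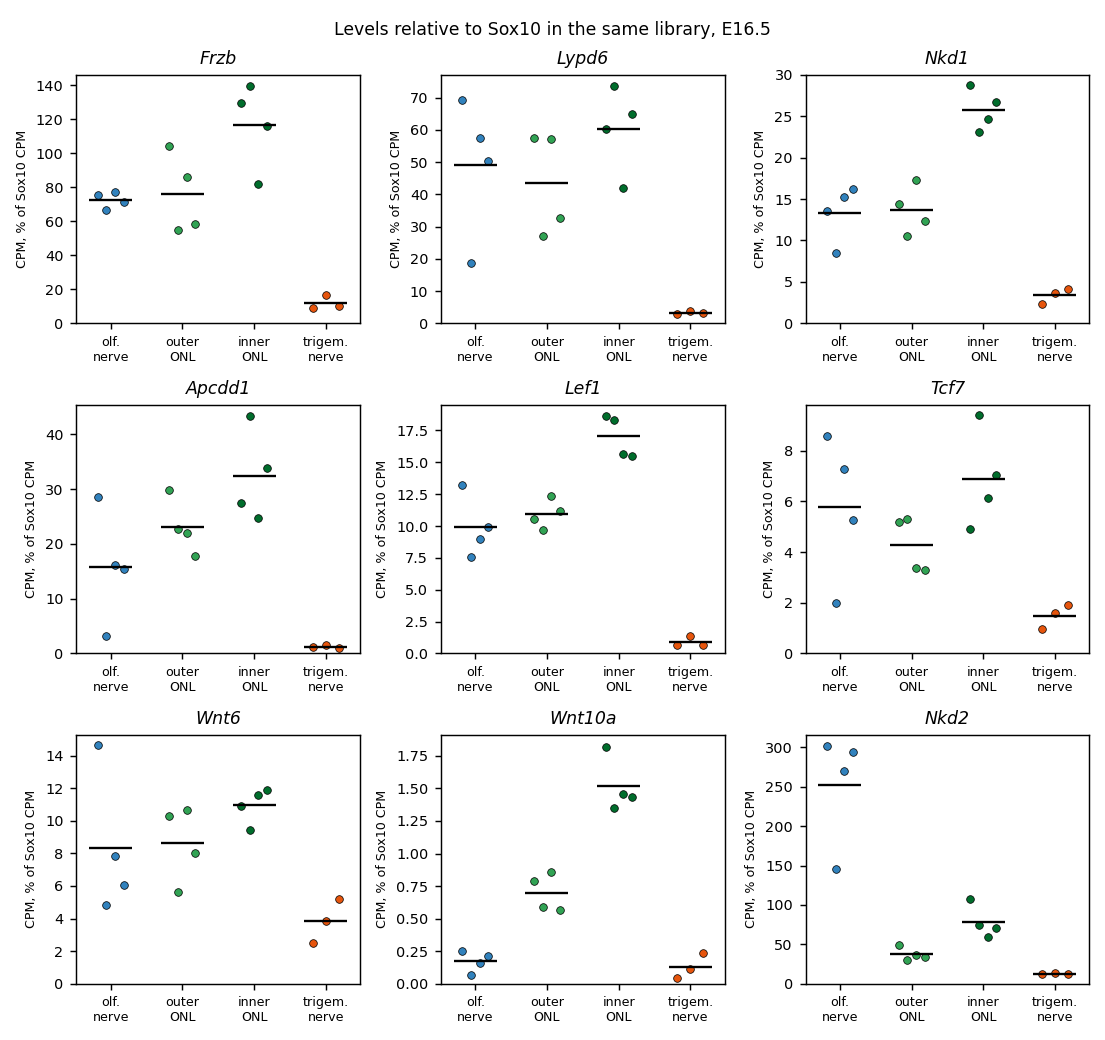
Levels of 9 members at E16.5 as a percentage of the Sox10 CPM of the same library, on linear axes from 0, with 1 point per library and a bar at the mean of each group. Outer ONL and olfactory nerve overlap for Frzb, Lypd6, Nkd1, Apcdd1, Lef1, Tcf7 and Wnt6, Wnt10a is higher in both ONL groups, and every trigeminal library is below every outer and inner ONL library.

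Of the 51 members tested, Wnt10a alone was higher in every outer ONL library than in any olfactory nerve library relative to Sox10, where 0.635% of all genes were, and 35 members were lower (87.8% of all genes). Against olfactory nerve, inner ONL was higher without overlap for Wnt7a, Wnt10a, Frzb, Nkd1, Lef1 and Rspo4 (2.42% of all genes) and lower for 34 members (79.7%). Against trigeminal nerve, 15 members were higher without overlap in outer ONL (5.48% of all genes) and 24 lower (60.7%). The 15 were Wnt4, Wnt6, Wnt7a, Wnt7b, Wnt10a, Wnt16, Frzb, Wif1, Lypd6, Nkd1, Nkd2, Axin2, Apcdd1, Lef1 and Tcf7. For inner ONL 16 were higher (10.7% of all genes), with Wnt3, Znrf3 and Rspo4 in place of Wnt4 and Wnt16, and 25 lower (39.2%).

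At E13.5 the ONL already differed from the nerve in 35 members, 17 higher and 18 lower (31.5% of all 19332 genes tested, 15.4% higher and 16.1% lower). Grouped by label 13 were called, and 17 of the 35 changed sign. Among the members the median was -0.19, against -0.03 over all genes. Apcdd1 was at 42.5, 47.1, 41.3, 46.1 and 50.5 CPM in the ONL and between 2.98 and 6.45 in nerve, with a median of 5.03 (3.34 ± 0.25, adjusted p = 8.52e-12; -1.22 by label). Lef1 was at 24.9, 26.8, 28.3, 24.6 and 33.0 CPM in the ONL and between 2.51 and 4.84 in nerve, with a median of 3.28 (2.96 ± 0.18, adjusted p = 3.16e-13; 0.12 by label). Neither gene overlapped between groups. Wif1 was at 53.5, 51.8, 71.8, 66.3 and 67.9 CPM in the ONL and between 0.405 and 3.69 in nerve, with a median of 1.68 (5.17 ± 0.39, adjusted p = 4.39e-11; -8.02 by label). Its level in the E13.5 ONL was thus already in the E16.5 range of 39.6 to 84.3 CPM in ONL, whereas the nerve was not.

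Wnt7a, Wnt7b and Wnt3 were highest in the E13.5 ONL of all groups, at 16, 31.3, 8.67, 11.4 and 15.1 CPM for Wnt7a, 11.3, 21.6, 23.8, 22.2 and 30.1 for Wnt7b, and 5.50, 4.04, 6.04, 7.55 and 5.46 for Wnt3. Wnt7a was 0 in all 7 E13.5 nerve libraries, at least 64.5-fold lower, and the other pair did not exceed 1.52 CPM there. Of 12 bulb markers, 9 were higher in the E13.5 ONL than in nerve and none lower, with summed levels of 614 to 770 CPM against 31.5 to 77.3. Their part in these ligand levels was not tested. Tcf7 (2.18), Wnt16 (1.79), Wnt6 (1.75), Lypd6 (1.61), Axin2 (1.42), Sfrp4 (1.18), Nkd1 (1.17), Sfrp5 (1.08), Frzb (0.86), Ror1 (0.69) and Znrf3 (0.56) were also higher in the ONL. Lower were Sfrp2 (-3.53), Wnt9a (-2.96), Lgr5 (-2.96), Sostdc1 (-2.95), Rspo3 (-2.71), Wnt5a (-2.70), Dkk3 (-2.42), Nkd2 (-1.94), Fzd9 (-1.91), Rspo1 (-1.84), Dkk2 (-1.75), Fzd8 (-1.69), Sfrp1 (-1.64), Wnt5b (-1.34), Wnt11 (-1.24), Lrp6 (-0.83), Fzd2 (-0.83) and Ror2 (-0.51). Wnt5a was at 7.60, 6.77, 8.61, 9.28 and 6.93 CPM in the ONL and at 26.7 to 64.1 in nerve. Nkd2 was at 34.6, 29.0, 30.6, 43.2 and 33.5 CPM in the ONL and at 121 to 144 in nerve, without overlap. At this stage the study's in situ hybridization showed neither Nkd2 nor Lypd6 in OECs. It showed Sfrp5 in mucosal OECs and not in those of the ONL, opposite to the bulk difference. The cause of these conflicts was not tested. Epithelial (11 of 12) and mural (5 of 7) markers were lower in the ONL. Of 12 mesenchymal markers, 6 were lower and 2 higher. The part of these cell types was not tested. Wnt11, Ror1, Ror2, Sfrp4, Sfrp5 and Znrf3 lost their call when single libraries were left out (highest adjusted p 0.137, 0.0532, 0.112, 0.0764, 0.178 and 0.147).

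In the olfactory nerve, 26 members rose and 7 fell from E11.5 to E13.5 (36.6% of all genes were called, 20.2% higher and 16.4% lower). By label 17 were called, and 11 of the 33 changed sign. The members' median was 0.91, against 0.05 over all genes. Of 10 secreted inhibitors tested, 8 rose. Dkk3 was at 8.84, 3.59, 9.0 and 14.5 CPM at E11.5 and at 66.2 to 102, median 78.7, at E13.5 (3.22 ± 0.32, adjusted p = 4.04e-09; 2.23 by label). Dkk2 was at 1.25, 6.15, 2.80 and 9.45 CPM and then at 34.3 to 84.4, median 55.2 (3.56 ± 0.53, adjusted p = 5.03e-06; 1.46 by label, where the call was lost). Sfrp1 was at 99.8, 129.6, 90.7 and 60.6 CPM and then at 341 to 512, median 378 (2.11 ± 0.30, adjusted p = 2.14e-06; 1.34 by label). Groups did not overlap for these 3 genes. Wif1 was 0 in all 4 E11.5 libraries and at least 17.6-fold higher at E13.5. Sostdc1 (3.78), Sfrp4 (3.18), Sfrp2 (2.52) and Frzb (0.96) were the other inhibitors that rose. All 7 endothelial, 9 of 12 epithelial, 5 of 7 mural and 9 of 12 mesenchymal markers rose in the same comparison, while 2 mesenchymal markers fell. Of 11 glial markers, 4 rose and 3 fell. Mean Sox10 was at 322 CPM at E11.5 and at 57.1 CPM at E13.5. The part of these cell types was not tested.

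Rspo3 (4.49), Wnt2b (2.79), Wnt6 (2.33), Wnt11 (2.28), Rspo2 (1.88), Axin2 (1.33), Lrp6 (1.32), Tcf7 (1.3), Wnt5a (1.05), Fzd6 (1.03), Fzd8 (0.95), Lypd6 (0.91), Lrp5 (0.85), Nkd2 (0.77), Znrf3 (0.74) and Ror1 (0.66) rose as well, and Wnt2 and Wnt3 were called from 0 to levels below 0.6 CPM. Sfrp5 fell, from 24.9, 12.0, 19.1 and 22.1 CPM at E11.5 to 1.19 to 5.28 at E13.5 (-2.57 ± 0.37, adjusted p = 3.53e-06). Lef1 fell from 11.4, 11.49, 9.29 and 6.61 CPM (-1.42 ± 0.19, adjusted p = 8.2e-07; -1.75 by label), so that the effectors Lef1 and Tcf7 moved in opposite directions, although Tcf7 was at -1.40 by label. Rspo4 (-3.54), Wnt16 (-2.0), Wnt7b (-1.95) and Fzd3 (-0.54) fell too. Wnt7a was called as lower at 0 against at most 1.88 CPM, a call carried by 1 E11.5 library (adjusted p = 0.265 without it). Fzd3, Lrp5, Ror1, Znrf3 and Tcf7 also lost their call without single libraries (highest adjusted p 0.0849, 0.126, 0.123, 0.078 and 0.0631).

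From E13.5 to E16.5 the olfactory nerve changed in 17 members, 12 up and 5 down (28.8% of all genes, 15.2% higher and 13.6% lower, and 9 members by label). Members had a median of 0.23, against -0.02 over all genes. Sfrp4 rose from at most 3.57 CPM to 297, 78.4, 178 and 154 (6.24 ± 0.46, adjusted p = 9.31e-11; 6.10 by label). Sostdc1 rose from at most 9.01 CPM to 123, 112, 111 and 99.2 (4.88 ± 0.50, adjusted p = 2.21e-08; 5.08 by label). Wif1 rose from at most 3.69 CPM to 13.0, 68.4, 38.8 and 51.3 (4.60 ± 0.39, adjusted p = 2.04e-09; 1.87 by label). Both stages stood apart for these 3 inhibitors. The study's in situ hybridization showed no Wif1 in mucosal OECs at these stages. Wnt16 (2.1), Wnt6 (2.06), Apcdd1 (1.92), Lef1 (1.73), Fzd9 (1.48), Nkd2 (1.16), Dkk2 (1.13), Fzd6 (1.02) and Lypd6 (0.72) rose, and Fzd8 (-1.45), Wnt5b (-1.45), Fzd2 (-0.61), Lrp6 (-0.53) and Rspo4, which reached 0, fell. Fzd2, Fzd9, Lrp6, Dkk2 and Lypd6 lost their call without single libraries (highest adjusted p 0.0972, 0.278, 0.0668, 0.0966 and 0.103). Sox10 rose from a mean of 57.1 to 126 CPM over the same interval. Mesenchymal (7 of 12) and mural (5 of 7) markers rose too, while 2 mesenchymal markers fell. The part of these cell types was not tested.

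The E16.5 outer ONL was higher than the E13.5 ONL for 16 members and lower for 6 (41.9% of all genes, 21.9% higher and 20% lower, and 26 members by label). Among the members the median was 0.40, against 0 over all genes. Nkd2 (2.79 ± 0.21, adjusted p = 3.25e-11; 1.43 by label), Frzb (1.79 ± 0.24, adjusted p = 3.98e-07; 3.28 by label), Wnt6 (2.81 ± 0.42, adjusted p = 2.97e-06; 6.05 by label), Lef1 (1.33 ± 0.19, adjusted p = 2.26e-06; 3.03 by label) and Apcdd1 (1.68 ± 0.26, adjusted p = 5.25e-06; 4.92 by label) were higher. So were Sostdc1 (4.22), Wnt10a (3.54), Lgr5 (2.50), Nkd1 (1.88), Wnt16 (1.57), Lypd6 (1.40), Wnt9a (1.35), Fzd6 (1.31), Rspo3 (1.25), Dkk3 (0.95) and Znrf3 (0.65). Wnt3 (-5.34), Wnt7a (-3.42), Wnt7b (-3.13), Sfrp1 (-1.11), Fzd1 (-0.95) and Fzd3 (-0.63) were lower, and 7 of 12 bulb markers were lower and none higher in the same comparison. Of the other markers, 8 of 11 glial, 7 of 7 mural, 6 of 12 mesenchymal and 4 of 7 endothelial ones were higher at E16.5. Of the mesenchymal ones, 2 were lower. The part of these cell types was not tested. Wnt9a, Fzd3, Znrf3 and Rspo3 lost their call without single libraries (highest adjusted p 0.124, 0.103, 0.0864 and 0.153). The E13.5 ONL was cut as 1 layer, so stage and depth within the ONL cannot be told apart here.

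The difference between ONL and nerve itself changed between E13.5 and E16.5 in 10 members (12.3% of all genes, 5.59% up and 6.75% down, and 16 members by label). The members' median was 0.28, against 0.04 over all genes. The log2 difference moved up for Nkd2 (1.63 ± 0.27, adjusted p = 0.00014; 0.094 by label, where the call was lost), Frzb (1.56 ± 0.32, adjusted p = 0.00129; 3.18 by label), Fzd8 (1.26 ± 0.41, adjusted p = 0.0382) and Rspo4. It moved down for Sfrp4 (-6.11 ± 0.67, adjusted p = 5.07e-07; -3.20 by label), Wif1 (-4.95 ± 0.56, adjusted p = 1.35e-06), Wnt3, Wnt7a, Wnt7b (-3.33 ± 0.88, adjusted p = 0.01) and Fzd1 (-0.82 ± 0.25, adjusted p = 0.0292). Bulb markers moved with these ligands, 5 of 12 down and none up, and their part was not tested. Leaving out E16.5 nerve replicate 4 ended the call for Wnt3 and Wnt7a (adjusted p = 0.0692 and 0.0953), and leaving out any of several libraries ended that for Fzd1 and Fzd8 (up to 0.0781 and 0.0858). For Sfrp4 the change meant 5.22 CPM in the ONL and 2.26 in the nerve at E13.5 against 5.68 and 177 at E16.5. For Wif1 it meant 62.3 and 1.69 CPM at E13.5 against 49.4 and 42.9 at E16.5. For Nkd2 the ONL mean went from 34.2 to 239 CPM and the nerve mean from 132 to 299.8. Neither Lef1 (-0.40 ± 0.27, adjusted p = 0.416; 2.44 by label) nor Tcf7 (-0.10 ± 0.55, adjusted p = 0.955; 3.77 by label) was called, and grouping by label also turned the sign for Wnt3, Wnt7a, Wnt7b and Wif1.

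Outside the members, 65 further genes of the pathway (secretion, destruction complex, co-repressors, planar polarity and heparan sulfate proteins) were described from a list, of which 64 were tested at E16.5. Between outer ONL and nerve 9 of them were higher and 13 lower (10.3% and 15.4% of all genes), with a median log2 difference of -0.07. The called genes of largest change that exceeded a mean of 5 CPM are named. Sp5, a transcription factor induced by beta-catenin in many embryonic tissues, was higher in outer ONL (4.29 ± 0.60, adjusted p = 4.15e-05), at a mean of 6.08 CPM against 0.295. Lypd6b, the relative of Lypd6, was higher too (2.70 ± 0.49, adjusted p = 0.000544). The sulfatase Sulf1 (-3.63 ± 0.43) and Tpbg (-2.45 ± 0.32) were lower. In inner ONL 15 were higher and 22 lower than in nerve (19.1% and 21.2% of all genes), led by Sp5 (5.27) and Tnfrsf19 (3.03), a membrane receptor at 772 CPM against 92.3, with Sulf1 (-4.78) and Tpbg (-3.04) lowest.

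Inner ONL differed from outer ONL in 19 of the 64, 9 higher and 10 lower (10.1% and 7.54% of all genes), with Celsr3 (2.14) and Ndp (1.58), a ligand of Fzd4, higher and Shisa3 (-2.55) and Gpc3 (-2.41) lower. Against trigeminal nerve, outer ONL was higher for 17 and lower for 14 (15.1% and 16.2% of all genes), and inner ONL higher for 21 and lower for 19 (22.1% and 21.7%). In both Sp5 (6.76 and 7.75, from 0.0502 CPM in trigeminal nerve) and Lypd6b (4.99 and 5.16) led one end, and Sulf1 (-6.93 and -8.09) and Gpc3 (-2.53 and -4.94) the other. Olfactory nerve was higher than trigeminal nerve for 17 and lower for 9 (15.2% and 11.7% of all genes), led by Ndp (3.84), Celsr3 (2.81), Sulf1 (-3.30) and Gpc3 (-2.46). At E13.5, 16 were higher and 16 lower in the ONL (15.4% and 16.1% of all genes), led by Ndp (3.57), Draxin (3.14), Sulf1 (-2.19) and Prickle1 (-2.01). From E11.5 to E13.5 the nerve rose in 16 and fell in 13 (20.2% and 16.4%), led by Daam2 (3.08), Tnfrsf19 (2.50), Tle4 (-1.97) and Amer2 (-1.56). From E13.5 to E16.5 it rose in 13 and fell in 14 (15.2% and 13.6%), led by Shisa3 (3.19), Tnfrsf19 (2.39), Dact3 (-1.21) and Shisa2 (-1.05). Between the ONL groups of both stages 17 were higher and 16 lower at E16.5 (21.9% and 20%), led by Shisa3 (2.50), Tnfrsf19 (2.14), Draxin (-4.25) and Celsr3 (-3.64). The log2 difference between ONL and nerve moved up for 8 and down for 10 of the 65 (5.59% and 6.75% of all genes).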

How the data were processed

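Per the labels and the study's methods, nerve pieces were cut by laser microdissection from cryosections, RNA was amplified with SMART-seq V4, Nextera XT libraries were sequenced as paired reads on a NextSeq 500, and the authors aligned reads with TopHat2 (2.1.0) to mm10 and counted them per Ensembl gene with HTSeq. The deposited values are these raw read counts per gene, with no normalization. The strand setting of the counting is not given in the sources used here. Of 47729 genes, 47224 had a symbol and 33331 had any count, and 1 row named no gene and was left out.

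Counts were fitted with edgeR 4.0.16 in R 4.3.3 (trimmed mean of M-values scaling, filterByExpr, quasi-likelihood F test, Benjamini-Hochberg adjustment over all genes, called at 0.05), on the 15 E16.5 libraries for E16.5 comparisons and on all 31 for those with early groups. The standard error is the log2 difference divided by the square root of F. The E16.5 regions share embryos, but nothing says that same-numbered libraries do. At E16.5, deviations of same-numbered nerve and outer ONL libraries correlated between 0.145 and 0.299, all above 0.1. Those of differently numbered libraries ran from -0.259 to 0.252, so the ranges overlap and the pairing is uncertain. The numbers were still taken to pair that comparison, and the blocked count and the calls it changed are given with it. Alternatives were DESeq2 1.42.0, total count scaling, no filter, the replicate block, all libraries or only those compared, grouping by label, and leaving out each library. Scripts were tested on simulated counts. Every called member was named, as were Frzb, Wif1, Nkd2, Lypd6, Sfrp5, Sostdc1, Dkk2, Sfrp2, Wnt7a and Wnt7b in each E16.5 comparison, and values per library were to be given for called members of at least 5 CPM, largest changes first. They are given for nearly all of these between outer ONL and nerve, and in the other comparisons, for length, for part of them. The members, lists and rules were chosen with earlier results of these data known. Counting precision is limited by library totals of 3512627 to 36705535 counts, and a floor of 3 counts covers counting error only. Promoter sequences are from RefSeq (GRCm38.p6), and primers were placed on GENCODE M21 transcripts.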

Additional observations from a re-analysis of the deposited data

Results flagged for a closer look

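In 10 of 163 pairs of a member and a group, 1 library lay apart from the others (Dixon's gap test, 95% level), and chance marks about 1 in 20. Tested were members called in a comparison of an E16.5 group, in groups of 4 to 7 libraries with a mean of at least 5 CPM. Fzd1 was at 41.5 CPM in 1 E13.5 ONL library and at 29.9 to 32.6 in the others, and at 27.9 CPM in the third outer ONL library beside 13.7 to 14.1. In the E13.5 ONL, Fzd2 was at 16 CPM in 1 library beside 39.7 to 56.4, and Ror1 at 16.6 beside 42.7 to 57.9. Fzd3 was at 23.6 CPM in the third inner ONL library beside 31.1 to 32.6, and Nkd1 at 83.1 in the second beside 152 to 171. Lypd6 was at 9.75 CPM in 1 E11.5 nerve library beside 19.4 to 22.3. Rspo1 was at 11.47 CPM in the third E16.5 nerve library beside 9.88 to 9.98, and at 1.14 in the first outer ONL library beside 6.45 to 7.55. Lgr5 was at 22.9 CPM in 1 E13.5 nerve library beside 9.40 to 12.7.

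The log2 difference between ONL and nerve changed between E13.5 and E16.5, by edgeR's test of the interaction, for Nkd2 (1.63), Frzb (1.56), Fzd8 (1.26), Fzd1 (-0.82), Sfrp4 (-6.11), Wif1 (-4.95), Wnt7b (-3.33) and Wnt3 (-5.62). Wnt7a (-8.64) and Rspo4 (4.98) were at 0 in every library of a nerve group, so their fitted values depend on the prior count and are no measure of size.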

How the results depend on the processing

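Grouped by label, 13 members were called between ONL and nerve at E13.5, 17 from E11.5 to E13.5, 9 from E13.5 to E16.5 in nerve and 16 for the change of the difference. By label the log2 difference between ONL and nerve at E13.5 turned sign for Wnt3 (-7.14), Wnt6 (-2.26), Wnt7a (-2.51), Wnt7b (-1.26), Wnt9a (0.19), Fzd2 (0.14), Ror1 (-0.49), Ror2 (0.085), Sfrp4 (-1.74), Frzb (-0.76), Wif1 (-8.02), Lypd6 (-0.83), Nkd1 (-0.43), Axin2 (-1.42), Apcdd1 (-1.22), Znrf3 (-0.69) and Tcf7 (-1.70). From E11.5 to E13.5 it turned for Wnt3 (-2.59), Wnt6 (-0.62), Fzd6 (-0.056), Ror1 (-0.56), Sfrp4 (-1.06), Frzb (-0.71), Wif1 (-2.41), Lypd6 (-1.26), Axin2 (-0.80), Znrf3 (-0.47) and Tcf7 (-1.40). It turned for Wnt3 (4.37), Wnt7a (1.95), Wnt7b (0.29) and Wnt9a (-1.35) between the ONL groups of both stages, and for Wnt3 (6.91), Wnt7a (5.11), Wnt7b (3.05) and Wif1 (8.24) in the change of the difference. Grouping by label moves 10 early libraries and no E16.5 library. For E16.5 comparisons, fitting all 31 libraries with the early groups as tabulated lost 15 of 178 calls, with 12 members called between inner and outer ONL and 21 between the nerves. With all 31 grouped by label these counts were 7 and 15. The calls lost with the tabulated groups were Wnt7a (adjusted p = 0.104) and Lgr5 (0.0708) for outer ONL against nerve, Dkk1 (0.061) and Axin2 (0.119) for inner ONL against nerve, Fzd2 (0.118) and Ror1 (0.0626) for outer and Wnt16 (0.0541) and Ror1 (0.316) for inner ONL against trigeminal nerve, and those named in the text for inner against outer ONL and between the nerves. Fitting only the groups compared lost 7 of the 111 early calls it tested, namely Lrp5 (0.0905), Tcf7 (0.0986) and Rspo2 (0.0717) from E11.5 to E13.5, and Wnt9a (0.0542), Fzd3 (0.0766), Znrf3 (0.0656) and Rspo3 (0.154) between the ONL groups. The cause of these losses was not tested.

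Leaving out each library in turn gave 24 to 27 members called between outer ONL and nerve, 32 to 35 between inner ONL and nerve, 9 to 15 between inner and outer ONL, 34 to 38 and 37 to 42 between outer or inner ONL and trigeminal nerve, and 19 to 25 between the nerves. It gave 31 to 35 at E13.5, 30 to 37 from E11.5 to E13.5, 13 to 17 from E13.5 to E16.5 in nerve, 18 to 25 between the ONL groups and 7 to 11 for the change of the difference. With the replicate block, 28 members were called between outer ONL and nerve (Wnt9a adjusted p = 0.0222, Rspo2 adjusted p = 0.0332). In the other E16.5 comparisons, where the numbers did not all correlate above 0.1, the block lost Dkk1 (adjusted p = 0.087) and Axin2 (0.066) for inner ONL against nerve, and Wnt3 (0.079), Wnt7a (0.053) and Wnt7b (0.091) between the nerves. No paired analysis was possible for the early comparisons because the regrouped libraries carry unrelated numbers. Among called members, 4 of 295 calls were lost with DESeq2, 13 of 295 with total count scaling and 12 of 295 with no filter. Members near 3 counts per library could not be resolved at this depth.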
